A study of Homo sapiens with 17 samples.

Results

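Binding of forkhead and SOX factors near 43 collagen genes was described from Flag ChIP-seq in U2OS, a human osteosarcoma cell line. Members were all genes of the collagen family with a span in the RefSeq table of GRCh38.p14, 43 of 19974 protein-coding genes on chromosomes 1 to 22 and X. A peak was given to a gene when its summit lay within 50 kb of the gene's span. The 43 windows, merged where they overlapped, covered 10379.5 kb and held 142 of 37219 peaks of full-length FOXA1 and 178 of 50105 of CTD-deleted FOXA1. They held 147 of 44637 peaks of full-length FOXA2, 194 of 52866 of CTD-deleted FOXA2, 13 of 6082 of full-length FOXA3 and 14 of 6763 of CTD-deleted FOXA3. Of SOX2 they held 0 of 1365 peaks, and of the SOX2-FOXA2 CTD fusion 27 of 7844.

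The series comprised 17 samples, 2 biological replicates in each of 8 groups and 1 input. All 8 groups were stable U2OS lines in which doxycycline switches on a Flag-tagged protein through a Tet-on system, sampled after 4 days at 500 ng/ml as the treatment label states it. The extraction protocol writes the same number per microlitre, and which is right could not be settled here. The expressed proteins were FOXA1, FOXA2 and FOXA3 at full length, the same 3 with the CTD removed, SOX2 at full length, and SOX2 joined to the CTD of FOXA2. The factors were thus introduced by a construct, and the labels do not say whether a line was 1 clone. Expression was not measured in these libraries, so neither the cell line's identity nor the activity of any collagen gene was checked here.

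Collagens are triple-helical proteins of the extracellular matrix. Fibrillar collagens form the tensile fibrils of bone, skin and cartilage, other classes coat those fibrils or build sheets and networks, and some span the cell membrane. Bone-forming cells lay down a matrix of mainly type I collagen with types III and V, and osteosarcomas are tumours that make such matrix. FOXA proteins are forkhead factors of endodermal tissues known to engage closed chromatin, and SOX2 is a pluripotency factor of another family with the same ability.

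Each group had 1 list of peaks combined from both replicates, with the irreproducible discovery rate (IDR) of each peak, which measures how well its ranks agree between replicates. The weakest peak had an IDR of 0.200 in the full-length and 0.0501 in the CTD-deleted FOXA1 list. These limits were 0.351 and 0.250 for FOXA2, 0.100 and 0.010 for FOXA3, 0.100 for SOX2 and 0.920 for the fusion. Lists were therefore cut at different limits, and counts were read as shares, as densities per 100 kb, or beside the same count over other genes. Differences between lists have no replicate check, the depth of the libraries is unknown, and all intervals below are 95% intervals that cover counting error over peaks only and treat each peak as independent. Peak strength means the lower of the −log10 p values of a peak in both replicates. The columns of those values carry no replicate number, so they are given as a first and a second value.

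Promoter sequence, the 250 bases before an annotated start, was available for 32 of the 43 members (44 starts) in the RefSeq promoter table of GRCh38.p14. COL1A1, COL1A2, COL2A1, COL3A1, COL5A2, COL6A1, COL6A5, COL8A1, COL9A3, COL14A1 and COL20A1 were not analysed in it. Peaks overlapped only 2 of the 44 promoters, and both are shown, with that of COL9A2, the only start within 1 kb of a peak of the fusion, and of COL4A2, a gene without any peak. The letters searched on both strands were, for forkhead factors, the string TGTTTAC with its variants TGTTTAT (last base), TATTTAC (second base) and TGTTTGC (sixth base), and for SOX factors ACAAAG with its variant ACAATG. Matches are in capitals. All are printed 5′ to 3′ on the strand of the gene. The COL21A1 promoter lies at chr6:56091663-56091912 on the minus strand, that of COL13A1 at chr10:69801656-69801905 on the plus strand, that of COL9A2 at chr1:40317287-40317536 on the minus strand and that of COL4A2 at chr13:110307034-110307283 on the plus strand.
COL21A1: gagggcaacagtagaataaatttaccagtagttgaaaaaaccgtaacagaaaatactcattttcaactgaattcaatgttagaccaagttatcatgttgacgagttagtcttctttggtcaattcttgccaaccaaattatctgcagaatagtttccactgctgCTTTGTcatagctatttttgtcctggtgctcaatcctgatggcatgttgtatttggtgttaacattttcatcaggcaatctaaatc
COL13A1: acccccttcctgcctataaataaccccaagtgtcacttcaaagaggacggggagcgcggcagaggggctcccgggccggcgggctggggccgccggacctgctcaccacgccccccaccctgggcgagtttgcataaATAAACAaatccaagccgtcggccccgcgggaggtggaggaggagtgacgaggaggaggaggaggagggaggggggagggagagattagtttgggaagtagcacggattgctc
COL9A2: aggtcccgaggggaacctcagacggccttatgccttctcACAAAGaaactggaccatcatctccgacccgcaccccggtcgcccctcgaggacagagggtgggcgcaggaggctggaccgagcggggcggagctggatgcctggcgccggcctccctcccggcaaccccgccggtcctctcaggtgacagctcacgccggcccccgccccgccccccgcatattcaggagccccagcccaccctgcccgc
COL4A2: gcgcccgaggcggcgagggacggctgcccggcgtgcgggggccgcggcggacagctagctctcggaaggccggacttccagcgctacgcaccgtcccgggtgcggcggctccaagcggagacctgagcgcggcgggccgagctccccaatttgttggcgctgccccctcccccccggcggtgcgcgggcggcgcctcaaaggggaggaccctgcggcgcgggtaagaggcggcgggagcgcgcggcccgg

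The COL21A1 promoter belongs to a start inside the gene, which encodes a collagen that associates with fibril surfaces. It was covered by a CTD-deleted FOXA1 peak with −log10 p of 6.95 and 14.8. The summit of this peak lay 22 bp before that start, within the printed sequence. Full-length FOXA2 had a peak there with −log10 p of 3.62 and 2.97, and CTD-deleted FOXA2 one with 7.63 and 6.68. Both FOXA2 summits, 178 and 144 bp past the start, lay outside the printed sequence. The site was thus held by 3 of the 4 FOXA1 and FOXA2 lists, with the full-length FOXA1 list lacking it, and its 250 bases hold a SOX match and no forkhead match. At COL13A1, which encodes a transmembrane collagen, CTD-deleted FOXA2 alone had a peak that reached into the promoter, with −log10 p of 7.40 and 6.22. Its summit lay 1.17 kb before the start, outside the printed sequence, which holds the reverse complement of TGTTTAT. At COL9A2, a type IX collagen chain of cartilage, the fusion had a peak with −log10 p of 4.04 and 5.31 and its summit 523 bp inside the gene, next to the printed promoter with its ACAAAG. The COL4A2 promoter, between the divergent basement membrane genes COL4A1 and COL4A2, holds none of the 6 strings.

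Among all 44 collagen promoters, TGTTTAT was found in 3 and TGTTTGC in 2, against 3.76% and 3.22% of the 34961 promoters in the table. TGTTTAC and TATTTAC were found in 0 of the 44, against 2.98% and 2.4%. ACAAAG was found in 6, against 13.7%, and ACAATG in 1, against 9.25%. A match is a description of the letters and not a binding site.

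Taken over all 43 genes, peaks of FOXA1 and FOXA2 were about as dense near collagens as near other protein-coding genes. Per 100 kb of merged window, full-length FOXA1 had 1.37 peaks near collagens and 1.34 near other coding genes, a ratio of 1.02 (0.868 to 1.21). After deletion of the CTD the densities were 1.71 and 1.67, a ratio of 1.03 (0.888 to 1.19). For FOXA2 they were 1.42 and 1.57 at full length, a ratio of 0.899 (0.765 to 1.06), and 1.87 and 1.87 after deletion, a ratio of 0.999 (0.867 to 1.15). All 4 intervals held 1.

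FOXA3 had lower densities near collagens in its lists as deposited. At full length it had 0.125 peaks per 100 kb there and 0.197 near other coding genes, a ratio of 0.636 (0.371 to 1.09), and after deletion 0.135 and 0.233, a ratio of 0.580 (0.345 to 0.975). Only the second interval excluded 1, and it held 1 with windows of 10 kb (0.308 to 1.05) or 100 kb (0.480 to 1.08), among genes of at least 30 kb (0.362 to 1.02) and with equal numbers of peaks (0.353 to 1.04). These lists are not independent of each other, since 12 of the 13 collagen peaks of full-length FOXA3 repeat a row of the CTD-deleted list exactly. Without the shared rows, the full-length ratio was 1.06 (0.186 to 6.01) on 1 collagen peak. SOX2 had no collagen peak, and 0 of 1365 allows a share of up to 0.220% of its list by a limit of 3 counts, or 0.281% by the Wilson interval used for the other shares. That list placed 91 peaks in any protein-coding window, so it could show little. Fusion of SOX2 to the FOXA2 CTD gave 0.260 peaks per 100 kb near collagens and 0.223 near other coding genes, a ratio of 1.16 (0.800 to 1.70).

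Counted by gene, 31 of 43 collagens had a full-length FOXA1 peak, where 71.5% of all protein-coding genes had one. CTD-deleted FOXA1 had a peak at 36 (69.8% of coding genes), full-length FOXA2 at 31 (74.2%) and CTD-deleted FOXA2 at 34 (76.1%). FOXA3 had a peak at 9 in each of its lists (24.2% and 27.3% of coding genes), SOX2 at 0 (0.891%) and the fusion at 10 (25.6%). Peaks of all 4 FOXA1 and FOXA2 lists were present at 25 collagens, where 53.2% of coding genes had them. These collagen counts lay near the background, except that of CTD-deleted FOXA1, which was above it. Collagen genes are long, however, with a median span of 139 kb against 24.2 kb for all coding genes. The 5 collagens under 30 kb had a peak in 4, 4, 3 and 5 cases in the 4 lists, where 63.4%, 59.5%, 66.8% and 68.3% of coding genes of that length had one. Set beside coding genes of 100 to 200 kb, the 12 collagens of that length had one in 9, 9, 8 and 11 cases, where 86.0%, 89.2%, 88.0% and 90.6% of such genes had one. The 13 collagens of 30 to 100 kb had one in 8, 11, 9 and 8 cases, against 77.4%, 77.5%, 79.8% and 82.0%. At 200 kb and over, 10, 12, 11 and 10 of 13 collagens had one, against 92.8%, 94.6%, 93.0% and 94.3%. Beside genes of like span, collagens of 200 kb and over thus had lower shares in all 4 lists. Those of 100 to 200 kb had lower shares in all but CTD-deleted FOXA2, and those of 30 to 100 kb in all but CTD-deleted FOXA1. Under 30 kb the shares were higher in all but full-length FOXA2. The numbers of collagens are small, and these differences were not tested.

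Windows overlapped in 7 pairs of neighbouring collagens, whose shared peaks count for both genes below. The density map by gene and list shows how uneven the family was. Over the 4 FOXA1 and FOXA2 lists, the mean density of a collagen gene ran from 0 to 5.01 peaks per 100 kb, with a median of 1.06 against 1.19 for all coding genes. Means of at least 3 were reached by 5 collagens, where 11.9% of coding genes reached them.

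**Figure D1:**
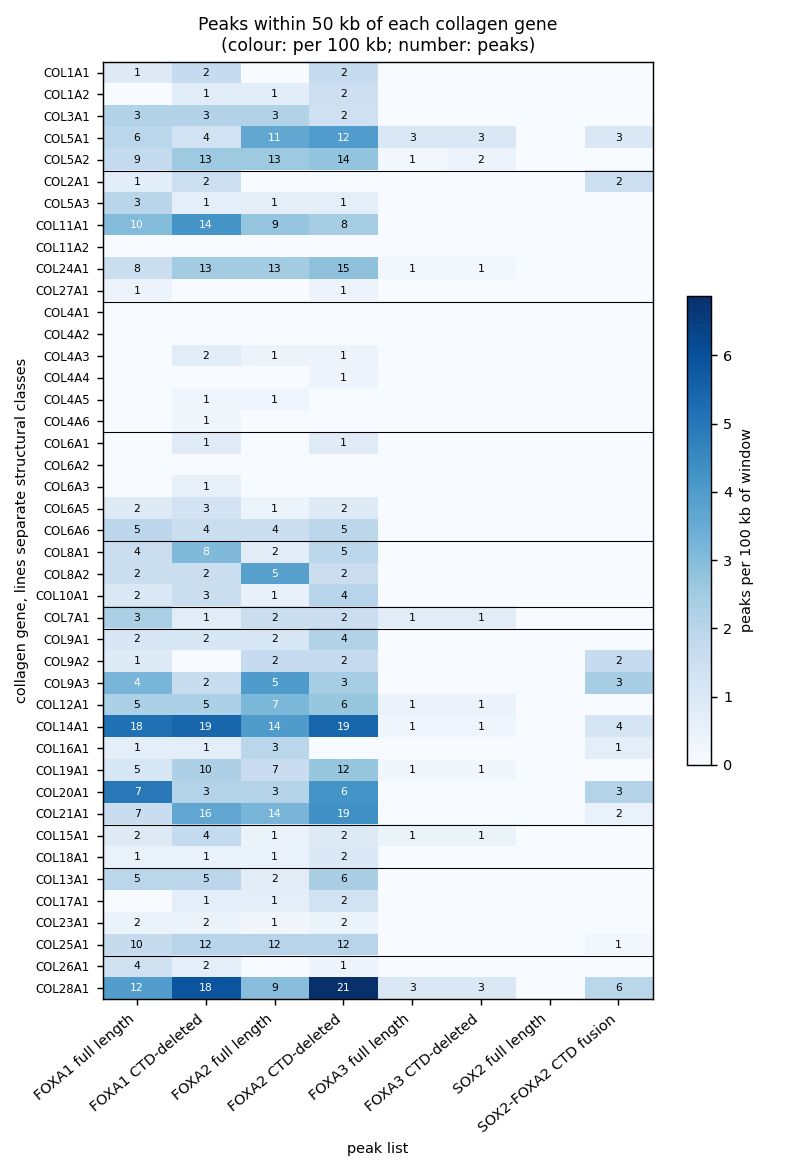
Rows are the 43 collagen genes and columns the 8 peak lists. Numbers give peaks with a summit within 50 kb of the gene and the colour scale gives peaks per 100 kb of that window, with lines between structural classes. COL14A1, COL21A1 and COL28A1 hold many peaks in the FOXA1 and FOXA2 columns, the type IV block is nearly empty, and the SOX2 column is empty.

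Among fibrillar collagens, those laid down by bone-lineage cells were taken as COL1A1 and COL1A2, the chains of type I collagen, COL3A1, the chain of type III, and COL5A1 and COL5A2, chains of type V that sit inside type I fibrils. Their merged windows of 1124 kb held 16 full-length and 21 CTD-deleted FOXA1 peaks, 25 and 30 FOXA2 peaks, 4 and 5 FOXA3 peaks, 0 SOX2 peaks and 3 fusion peaks. FOXA1 was as dense there as near the other collagens, with 1.42 against 1.36 per 100 kb at full length (ratio 1.05, 0.625 to 1.75) and 1.87 against 1.70 after deletion (ratio 1.10, 0.701 to 1.73). FOXA2 was denser, with 2.22 against 1.32 at full length (ratio 1.69, 1.10 to 2.59) and 2.67 against 1.77 after deletion (ratio 1.51, 1.02 to 2.22). FOXA3 was denser too in its lists as deposited, with 0.356 against 0.0972 at full length (ratio 3.66, 1.20 to 11.2), on 4 peaks. After deletion it had 0.445 against 0.0972 (ratio 4.58, 1.61 to 13.0), on 5 peaks. These FOXA3 ratios are not independent, since 12 of the 13 full-length collagen peaks repeat rows of the CTD-deleted list. Without the shared rows 1 full-length collagen peak was left and the ratio had no value. The fusion had 0.267 against 0.259 (ratio 1.03, 0.330 to 3.21). The difference between the ratios of the factors was not tested, and the FOXA1 and FOXA2 intervals overlap.

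The higher FOXA2 and FOXA3 densities rested on the type V genes, and mostly on COL5A1. Without COL5A1 the ratio was 1.29 (0.750 to 2.24) for full-length FOXA2, 1.24 (0.765 to 2.00) for CTD-deleted FOXA2, 1.25 for full-length FOXA3, 2.51 (0.611 to 10.3) for CTD-deleted FOXA3 and 0 for the fusion. Without COL5A2 it was 1.64 (0.963 to 2.78) and 1.46 (0.902 to 2.37) for the FOXA2 forms and 4.44 (1.30 to 15.2) in each FOXA3 list. Leaving the 6 type IV genes out of the other collagens brought the FOXA2 ratios to 1.43 (0.931 to 2.19) and 1.27 (0.862 to 1.87). Among the 6082 strongest peaks of each FOXA list, all bone-lineage peaks were at COL5A1 and COL5A2, and the ratio was 0.915 (0.295 to 2.84) and 3.84 (1.61 to 9.17) for the FOXA1 forms and 3.17 (1.18 to 8.53) and 1.43 (0.518 to 3.96) for the FOXA2 forms. For CTD-deleted FOXA2 the interval excluded 1 under 1 of 8 alternatives, that of windows of 10 kb. The order of the factors thus changed with the number of peaks kept.

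**Figure D2:**
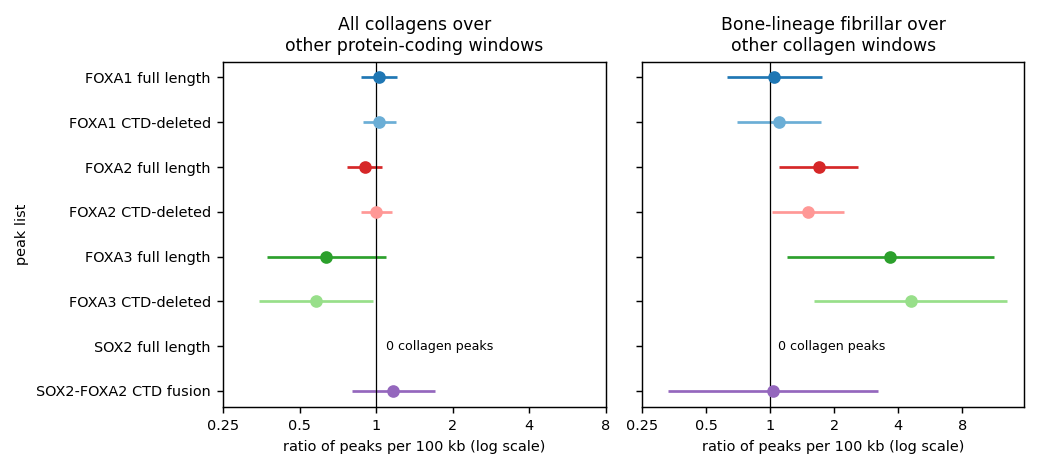
Points are ratios of peaks per 100 kb on a log axis, one row for each peak list, with bars for 95% intervals of counting error. On the left all collagen windows are divided by other protein-coding windows, and on the right the 5 bone-lineage fibrillar genes by the other collagens. The left points of FOXA1 and FOXA2 lie between 0.899 and 1.03. All plotted right points lie above 1, and only the right intervals of FOXA2 and FOXA3 exclude 1.

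COL1A1, the type I gene with the shorter span, had 1 peak of full-length FOXA1, 2 of CTD-deleted FOXA1, 0 of full-length FOXA2 and 2 of CTD-deleted FOXA2. The peak within the gene, at chr17:50198264-50198726, had −log10 p of 2.92 and 4.72 with full-length FOXA1 and 7.96 and 4.13 with CTD-deleted FOXA2. A second site nearer to TMEM92 had 6.86 and 6.81 with CTD-deleted FOXA1 and 7.40 and 3.59 with CTD-deleted FOXA2. COL1A2, the partner chain, had 0, 1, 1 and 2 peaks in the same 4 lists, each at a position of its own. Its full-length FOXA2 peak had 1.59 and 1.74, close to the weakest strength of that list, 1.52. Type I collagen genes thus carried few peaks in windows of 118 and 136 kb, and none of FOXA3, SOX2 or the fusion. Their means were 1.06 and 0.733 per 100 kb, which 54.5% and 65.6% of coding genes reached. The median over all collagens was 1.06.

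COL3A1 had 3, 3, 3 and 2 peaks in these lists, but it lies 19.2 kb from COL5A2, and all but 1 of them fell in the part of its window that the genes share. The exception, a CTD-deleted FOXA1 peak within COL3A1 at chr2:188976566-188977130, had −log10 p of 4.44 and 13.7. The shared site at chr2:189036947-189037991, within COL5A2, was in all 4 lists, with 8.35 and 4.10, 2.96 and 8.00, 1.57 and 2.94, and 2.75 and 4.79. The lower of both values was at most 4.10 in every list.

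COL5A2 had 9, 13, 13 and 14 peaks in the 4 lists, and 1 and 2 in the FOXA3 lists. Its site at chr2:189225407-189226525, inside the gene, was present in all 6 FOXA lists. The −log10 p values there were 13.7 and 12.2 for full-length FOXA1, 10.2 and 20.1 for CTD-deleted FOXA1, 6.59 and 4.59 for full-length FOXA2, 7.15 and 14.8 for CTD-deleted FOXA2, and 7.75 and 18.4 in both FOXA3 lists, which share the row. Since that row is the same in both FOXA3 lists, it does not show the site separately for each FOXA3 form. Another COL5A2 site, at chr2:189065865-189067112, held the strongest collagen peak of CTD-deleted FOXA1, with 17.2 and 17.2 and rank 481 of 50539. Full-length FOXA2 had 7.60 and 10.3 there and CTD-deleted FOXA2 9.18 and 16.0, while the full-length FOXA1 list had no peak.

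COL5A1 had 6 and 4 FOXA1 peaks, 11 and 12 FOXA2 peaks, 3 and 3 FOXA3 peaks and 3 fusion peaks, the only bone-lineage gene with a fusion peak. The site 28.3 kb from its start, at chr9:134669365-134671036, was in all 6 FOXA lists. There the −log10 p values were 3.28 and 4.33 for full-length FOXA1, 9.08 and 16.2 for CTD-deleted FOXA1, 4.53 and 2.36 for full-length FOXA2, 14.4 and 5.86 for CTD-deleted FOXA2, 2.44 and 17.5 for full-length FOXA3 and 10.9 and 28.5 for CTD-deleted FOXA3. In each pair the CTD-deleted form had the higher strength at this site. A site 2.94 kb from the start, at chr9:134644190-134645392, was in 5 lists, all but full-length FOXA1, with 5.49 and 4.91 and 6.91 and 5.60 for the FOXA2 forms. In bulk chromatin, binding in fewer cells and weaker binding in each cell cannot be told apart.

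**Figure D3:**
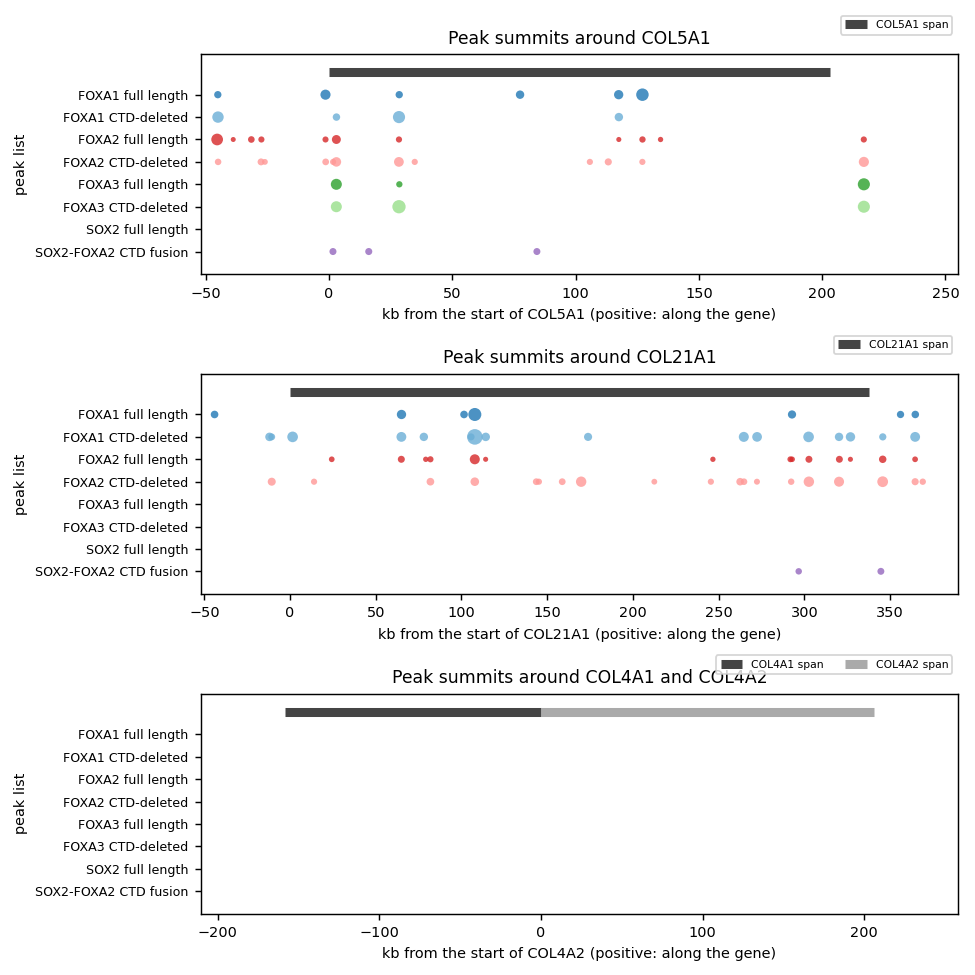
Each dot is the summit of a peak, placed in kb from the start of the gene along its direction, with 1 row for each list and dot area in proportion to peak strength. COL5A1 has recurrent positions near its start, at 28.3 kb and beyond its end, COL21A1 has FOXA1 and FOXA2 peaks along its length, and the neighbours COL4A1 and COL4A2 have none in any list.

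Of the other fibrillar collagens, COL11A1, a minor chain of cartilage fibrils, had 10, 14, 9 and 8 peaks in the FOXA1 and FOXA2 lists, and COL24A1, a fibrillar collagen of developing bone, had 8, 13, 13 and 15. COL24A1 also had 1 peak in each FOXA3 list. It was not among the genes taken as bone-lineage, so its peaks count with the other collagens in the bone-lineage ratios. COL2A1, the main collagen of cartilage, had 1, 2, 0 and 0 and 2 fusion peaks. COL5A3, a further type V chain, had 3, 1, 1 and 1, and its site in all 4 lists lay within the neighbouring gene OLFM2. COL27A1, a cartilage collagen, had 1, 0, 0 and 1, and COL11A2, the partner of COL11A1, had 0 in all 8 lists. The class thus held both rich and empty genes. For all 11 fibrillar genes as 1 set, the ratio to the rest was 1.10, 1.17, 1.41 and 1.15 in the 4 lists.

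Basement membrane collagens stood out for how few peaks they had. Type IV collagen is the sheet-forming network under epithelia and endothelia, and its 6 chains are encoded by 3 head-to-head gene pairs. Their merged windows held 0, 3, 2 and 2 peaks in the 4 FOXA1 and FOXA2 lists, 0 to 0.193 per 100 kb, and none in the others. COL4A1 and COL4A2, which encode the chains found in nearly all basement membranes, had none in any list, although their spans are 158 and 206 kb. COL4A3 had 0, 2, 1 and 1, COL4A4 0, 0, 0 and 1, COL4A5 0, 1, 1 and 0, and COL4A6 0, 1, 0 and 0. The CTD-deleted FOXA1 peak of COL4A6 also lies in the window of COL4A5. In at least 1 replicate each of these peaks had a −log10 p below 4.

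In all, 4 collagens had no peak in any of the 8 lists, namely COL4A1, COL4A2, COL6A2 and COL11A2, where 10.8% of all coding genes had none. Among genes with a span of at least 150 kb, COL4A1 and COL4A2 were 2 of 21 collagens without a peak, where 1.96% of such coding genes had none. COL4A1 and COL4A2 lie 126 bp apart, so they are 1 empty locus counted as 2 genes.

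Collagens that coat fibrils, the FACIT class, had 2.36, 2.69, 2.64 and 3.27 peaks per 100 kb in the 4 lists. The class of COL26A1 and COL28A1 had 2.66, 3.32, 1.49 and 3.65, above the FACIT class in all but the full-length FOXA2 list. COL14A1, a FACIT collagen of tendon and skin, had 18, 19, 14 and 19 peaks, a mean of 5.01 per 100 kb that 1.88% of coding genes reached. COL21A1 had 7, 16, 14 and 19, with 2 of the fusion. COL20A1 had 7, 3, 3 and 6, and COL9A3, a chain of type IX collagen of cartilage, had 4, 2, 5 and 3, each with 3 of the fusion. COL12A1, a FACIT collagen of bone and tendon, had 5, 5, 7 and 6 and 1 in each FOXA3 list. COL19A1 had 5, 10, 7 and 12, COL9A1 2, 2, 2 and 4, COL9A2 1, 0, 2 and 2 and COL16A1 1, 1, 3 and 0. Every FACIT gene therefore had a peak of at least 3 of these 4 lists.

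Some of the densest collagen sites lie in neighbouring genes. Both COL14A1 sites found in most lists were in 5 lists, and the first, chr8:120403302-120405589, lies within MRPL13, a mitochondrial ribosome gene, and was in all 4 FOXA1 and FOXA2 lists and in the fusion list. Its −log10 p values were 7.67 and 7.88, 10.4 and 14.2, 1.92 and 3.49, 10.3 and 8.11, and 9.47 and 3.85, so that full-length FOXA2 was the weakest there. COL28A1, which encodes a collagen with von Willebrand factor A domains, had 12, 18, 9 and 21 peaks, a mean of 4.91 per 100 kb that 2.05% of coding genes reached, with 3 in each FOXA3 list and 6 of the fusion. Its site at chr7:7589964-7591520, in all 6 FOXA lists, lies within the gene MIOS. The −log10 p values there were 9.25 and 7.22 and 8.45 and 26.6 for the FOXA1 forms. For the FOXA2 forms they were 9.90 and 5.08 and 20.4 and 6.66. Both FOXA3 lists had 8.81 and 14.2 there, in a row that they share. A site at chr7:7565425-7567618, in 6 lists with that of the fusion but without full-length FOXA2, and one at chr7:7563956-7565087, in 5, are also nearest to MIOS. COL26A1, the other gene of its class, had 4, 2, 0 and 1. COL7A1, the anchoring fibril collagen under the epidermis, had 3, 1, 2 and 2, and its site in 5 lists, chr3:48558081-48558895, lies within PFKFB4. The rule assigns by distance, so such peaks belong to a window and not to a collagen gene.

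Remaining classes were sparser or near the level of other genes. Beaded filament collagens, type VI, had 0.802, 1.03, 0.573 and 0.917 per 100 kb, and COL6A2 had none, while COL6A1 had 0, 1, 0 and 1, COL6A3 0, 1, 0 and 0, COL6A5 2, 3, 1 and 2 and COL6A6 5, 4, 4 and 5. Short-chain collagens had 1.36, 2.21, 1.36 and 1.87, with 4, 8, 2 and 5 at COL8A1 and 2, 2, 5 and 2 at COL8A2, a collagen of corneal endothelial membrane, and 2, 3, 1 and 4 at COL10A1, the marker of hypertrophic cartilage. Transmembrane collagens had 1.17, 1.37, 1.10 and 1.51, with 10, 12, 12 and 12 at COL25A1, a neuronal collagen. COL13A1 had 5, 5, 2 and 6, COL17A1, the hemidesmosome collagen, 0, 1, 1 and 2, and COL23A1 2, 2, 1 and 2. Multiplexins, which occur at basement membranes, had 0.689, 1.15, 0.459 and 0.919, with 2, 4, 1 and 2 at COL15A1, which also had 1 peak in each FOXA3 list, and 1, 1, 1 and 2 at COL18A1. None of these classes had a fusion peak except at COL25A1.

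**Figure D4:**
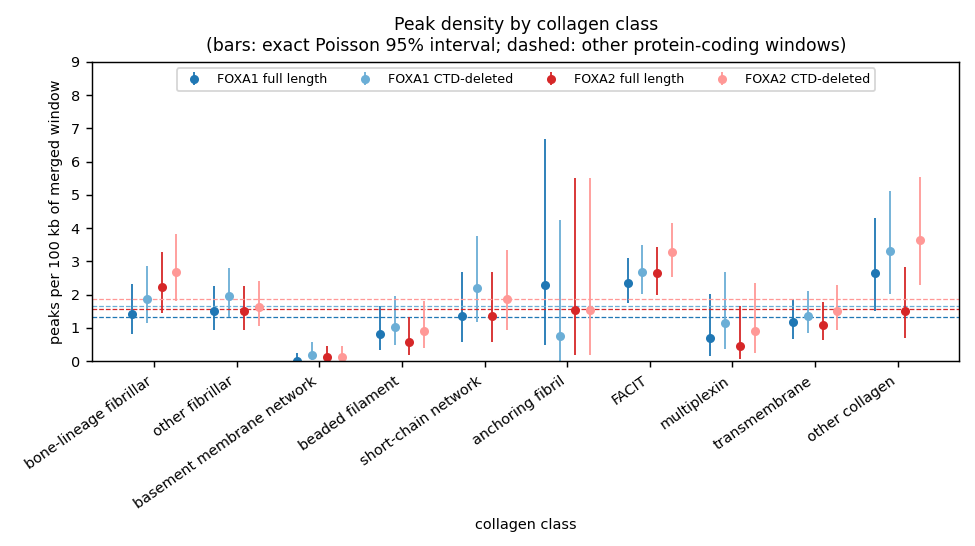
Points are peaks per 100 kb of merged window for each collagen class in the 4 FOXA1 and FOXA2 lists, with exact Poisson 95% intervals. Dashed lines mark other protein-coding windows. The basement membrane network lies at 0 to 0.193 and the FACIT class at 2.36 to 3.27, below and above the dashed lines.

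Between full length and CTD deletion, the share of a list that lay near collagens differed by less than counting error. That share was 0.382% at full length and 0.355% after deletion for FOXA1, a ratio of 0.931 (0.747 to 1.16). For FOXA2 it was 0.329% and 0.367%, a ratio of 1.11 (0.900 to 1.38), and for FOXA3 0.214% and 0.207%, a ratio of 0.968 (0.456 to 2.06). These intervals leave room for a change of either sign.

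By gene, more collagens had more peaks after deletion than fewer, as did coding genes in general. For FOXA1, 21 of 43 collagens had more peaks (34.5% of coding genes), 9 had fewer (29.7%) and 13 had the same number (35.8%). For FOXA2, 24 had more (37.5%), 7 fewer (28.4%) and 12 the same number (34.1%). In both pairs the share of collagens with more peaks was above that of coding genes. No share matched for span was taken, and collagen genes are longer (median 139 kb against 24.2 kb). The CTD-deleted lists are longer in both pairs. In the FOXA1 pair the largest gains per 100 kb were at COL21A1, from 7 to 16 peaks (+2.06), and COL28A1, from 12 to 18 (+1.96). The largest losses were at COL20A1, from 7 to 3 (-2.82), and COL9A3, from 4 to 2 (-1.60). In the FOXA2 pair COL28A1 had 9 and 21 peaks (+3.93) and COL20A1 3 and 6 (+2.12), while COL8A2 had 5 and 2 (-2.31) and COL16A1 3 and 0 (-1.98). COL28A1 had more peaks after deletion in both pairs, and COL20A1 had fewer in one and more in the other.

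**Figure D5:**
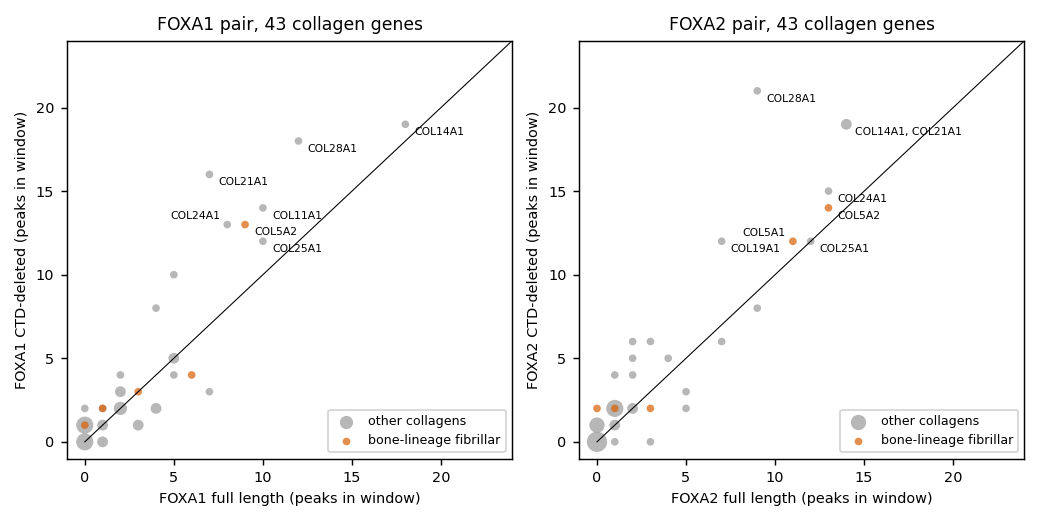
Each point is a collagen gene, or several at one position (larger area), with its number of peaks at full length on the horizontal axis and after CTD deletion on the vertical axis. Orange points are bone-lineage fibrillar genes and the line marks equal numbers. COL21A1 and COL28A1 lie farthest above the line for FOXA1, and COL28A1 for FOXA2.

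Positions overlapped about as often as elsewhere. Of the full-length FOXA1 collagen peaks, 58.5% overlapped a CTD-deleted FOXA1 peak, against 53.9% in other coding windows. Of CTD-deleted FOXA1 peaks 44.9% overlapped a full-length peak, against 43.3%. For FOXA2 these shares were 55.1% against 51.1% at full length and 41.2% against 42.9% after deletion. Merged over all lists, collagen windows held 386 sites, of which 366 had a FOXA1 or FOXA2 peak. Of these, 206 were in 1 of the 4 lists, 70 in 2, 51 in 3 and 39 in all 4. The last group was 10.7% of sites, against 9.61% in other coding windows.

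Across all 8 lists, 5 collagen sites were in 6 lists, 6 were in 5, and none in 7 or 8. A row that both FOXA3 lists share counts for both lists here. Besides those described, the site of COL19A1 at chr6:70131317-70132680 was in all 6 FOXA lists. Its strengths were 6.48 and 6.43 for the FOXA1 forms and 5.03 and 6.78 for the FOXA2 forms. In the row that both FOXA3 lists share it was 7.75. The other COL14A1 site in 5 lists, chr8:120346189-120347779, lies within the gene and was in both lists of FOXA1, both of FOXA3 and that of the fusion, and lacked FOXA2.

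Collagen peaks of full-length FOXA1 and FOXA2 lay within the genes about as often as the length of the genes in the windows would give. Those of the CTD-deleted forms lay there somewhat more often. Genes made up 63.9% of the window length and held 63.4% and 69.1% of FOXA1 peaks and 63.3% and 70.6% of FOXA2 peaks. They held 53.8% and 57.1% of the 13 and 14 FOXA3 peaks and 59.3% of the 27 fusion peaks. These shares are given without intervals. Summits near gene ends were few. Within 1 kb of a gene end, full-length FOXA1 had a peak at 1 of 43 collagens (11.3% of coding genes), CTD-deleted FOXA1 at 2 (6.33%), full-length FOXA2 at 0 (12.9%) and CTD-deleted FOXA2 at 4 (11.8%). FOXA3 had 0 in both lists (1.94% and 2.24%), SOX2 0 (0.160%) and the fusion 1 (4.48%). These were the end of COL9A3, in 3 lists with summits 263, 134 and 123 bp away, the end of COL9A1 in 2, the end of COL8A1 in 1, and the starts of COL12A1 and COL9A2 in 1 each.

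Peaks of the fusion near collagens were weak, in a list where few peaks had a low IDR. Of its 7844 peaks, 382 had an IDR of at most 0.01, and its weakest IDR was 0.920. Whether the 27 near collagens were weaker than the rest of that list was not tested. These 27 peaks had strengths of 2.41 to 4.04 and IDR values of 0.226 to 0.915. Of the 27, 17 were also in the list of the first replicate alone. The strongest were those of COL9A2, described above, COL14A1 (9.47 and 3.85, the site within MRPL13) and a second of COL14A1 (3.94 and 3.39). The others with a fusion peak among the strongest were COL25A1 (3.20 and 3.29), COL28A1 (3.20 and 3.39), COL5A1 (3.07 and 3.21), COL2A1 (3.20 and 3.01), COL21A1 (2.95 and 3.04) and COL20A1 (2.67 and 3.39). Of the 27, 8 overlapped a FOXA1 or FOXA2 peak. Full-length and CTD-deleted FOXA1 peaks overlapped 7 and 4 of the 27, against 586 and 430 of 4138 fusion peaks in other coding windows. For FOXA2 the counts were 2 and 4, against 646 and 704 of 4138. These differences were not tested. A SOX2 peak overlapped 0 of the 27, against 0.991% in other coding windows. With 0 SOX2 peaks in collagen windows, that count could hardly differ from 0. The 27 fusion peaks were 0.344% (0.237% to 0.500%) of the fusion list. The Wilson interval of the SOX2 share reaches 0.281%, so the intervals overlap. Only 91 SOX2 peaks lay in any protein-coding window, so the SOX2 share says little. Against other coding windows, the SOX2 density ratio of 0 had an interval up to 7.54.

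Genes that process and bind collagen, 37 in all, had a peak of full-length FOXA1 in 28 cases (71.5% of coding genes) and of CTD-deleted FOXA1 in 27 (69.8%). Full-length FOXA2 had a peak at 31 (74.2%) and CTD-deleted FOXA2 at 28 (76.1%). FOXA3 had 11 (24.2%) and 13 (27.3%), SOX2 0 (0.891%) and the fusion 10 (25.6%). The same shares of coding genes apply to the classes below, and no share matched for span was taken. Hydroxylation and folding genes, which modify the chains in the endoplasmic reticulum, had 13, 12, 14 and 13 of 16 in the 4 lists, and propeptide cleavage genes, which trim procollagen, 7, 7, 8 and 6 of 10. Crosslinking genes of the lysyl oxidase family had 3, 3, 4 and 4 of 5, and collagen receptors 5, 5, 5 and 5 of 6. Per 100 kb the whole list had 1.55, 1.80, 1.71 and 1.84 peaks, near the densities of collagens.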

How the data were processed

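Flag ChIP-seq peak lists of 8 groups with 2 replicates each, and the labels of 1 input, were used. Per the submitters' processing notes, the genome build was hg38 and the tools included Trim Galore, Bowtie2 2.4.4, SAMtools 0.1.18, MACS2 and deepTools 2.4.1; their settings are not given in the sources used here. The authors deposited combined lists in the 20-column layout of the IDR program, whose score column is 125 times log2 of 1 over the IDR. The deposited lists give −log10 p of each peak in both replicates. For SOX2 and the fusion, the authors also deposited lists of the first replicate, with a fold enrichment as a ratio. Of 14 lists, 10 were used and 4 were identical copies. The depth of every library is unknown, and nothing here measures the spread between libraries.

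Summits on chromosomes 1 to 22 and X were assigned to genes within 50 kb of their RefSeq GRCh38.p14 span (Python 3.11.15, pandas 2.3.3, SciPy 1.17.1). Windows were merged before densities per 100 kb were taken. Ratios of densities carry Wilson intervals of the share of peaks, and overlap meant at least 1 bp. With 1 combined list for each group, no test was made. The scripts were tested on simulated data. The members, classes and gene lists were chosen with earlier results of these data known. Named were all fibrillar genes, the 8 densest others, the 8 genes with the strongest fusion peaks, genes with no peak or with a summit within 1 kb of an end, the 2 largest gains and losses of each FOXA1 and FOXA2 pair and the 10 sites in most lists; the rest are given as counts.

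Alternatives were windows of 10 and 100 kb, an IDR of at most 0.01, spans of at least 30 kb, FOXA3 without shared rows, first-replicate lists and all 11 fibrillar genes. Equal numbers of strongest peaks, gene sets without COL5A1, COL5A2 or type IV genes, and the stricter IDR limit of a pair were chosen after seeing the data.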

Additional observations from a re-analysis of the deposited data

Results flagged for a closer look

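The list of the first SOX2 replicate alone, which the comparisons above do not use, held 49 peaks in collagen windows where the combined SOX2 list held 0. Those 49 were 0.355% (0.269% to 0.469%) of its 13788 peaks, and their density over that in other coding windows was 1.12 (0.846 to 1.48). They lay near 21 of 43 collagens, where 30.8% of coding genes had a peak in that list. COL14A1 had 8, COL19A1 and COL28A1 6 each and COL21A1 5, while COL1A2, COL5A1 and COL5A2 had 1 each and no other bone-lineage fibrillar gene had one. No list of the second SOX2 replicate alone was analysed here. The combined list, made from both replicates with a weakest IDR of 0.100, kept none of the 49 peaks. The first-replicate list of the fusion held 140 collagen peaks of 42289, near 30 collagens, where 67.0% of coding genes had one.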

How the results depend on the processing

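Over 26 results, 133 values under alternatives were computed, of which 114 moved by less than counting error, or by less than 1.5 times for counts, and 19 moved by more. Of 106 ratios under alternatives, 23 lay on the other side of 1 than the value reported, and all 23 belong to results whose own interval held 1. Where the reported interval excluded 1, it still did under 4 of 7 alternatives for the bone-lineage ratio of full-length FOXA2, 1 of 8 for CTD-deleted FOXA2, 4 of 8 for full-length and 6 of 8 for CTD-deleted FOXA3, and 1 of 5 for the collagen ratio of CTD-deleted FOXA3. At an IDR of at most 0.01 the collagen ratio was 1.23 for full-length FOXA1, 1.28 for CTD-deleted FOXA2 and 0 for the fusion, and genes with a peak numbered 11 for full-length FOXA1, 0 for full-length FOXA2, which has no peak at that limit, 16 for CTD-deleted FOXA2 and 0 for the fusion. With the 6082 strongest peaks of each FOXA list the collagen ratio was 1.35 for full-length FOXA1 and 1.22 for CTD-deleted FOXA2, and the bone-lineage ratio 3.84 for CTD-deleted FOXA1 and 3.17 for full-length FOXA2. With windows of 100 kb the collagen ratio of full-length FOXA2 was 1.08, and 15 and 16 collagens had a peak of full-length and CTD-deleted FOXA3. Without COL5A1 the bone-lineage ratio of the fusion was 0. Without the shared rows, full-length FOXA3 had a peak at 1 collagen and the pair ratio was 2.28. In first-replicate lists 21 collagens had a SOX2 peak and 30 a fusion peak. Beyond what fewer peaks or wider windows give by construction, the cause was not tested. No paired analysis was possible because each group has 1 combined list and the results come from no test. Leaving out a replicate was not possible for the same reason. The bone-lineage ratio of SOX2 has no value with 0 peaks, and that of full-length FOXA3 has none without the shared rows.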
